A study of Mus musculus with 5 samples.

Results

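The genes described here are the protein tyrosine phosphatases and dual-specificity phosphatases of the mouse, looked at for Runx3 binding and for the enhancer mark H3K4me1 in natural killer (NK) cells activated with IL-2. They were taken by symbol from the protein-coding genes of the GENCODE M1 annotation on build mm9: every symbol that began with Ptpn, Ptpr or Dusp and matched the numbering or lettering of these families. This gave 63 of 22254 protein-coding genes on 20 chromosomes, of which 21 were receptor-type phosphatases (Ptpr), 17 non-receptor phosphatases (Ptpn), 24 dual-specificity phosphatases (Dusp) and 1 was Ptprcap, a small protein that associates with CD45 and is not itself a phosphatase. The rule used symbols alone, but this set of genes was taken up with earlier results of these data known, so the shares are descriptions. The cells were splenic NK cells of ICR mice, obtained by negative selection and cell sorting and kept for 7 days in culture with 1000 units/ml of human IL-2. Chromatin immunoprecipitation was done with an in-house polyclonal antibody against Runx3 in 2 libraries, with non-immune rabbit serum as the control in 2 libraries, and with an antibody against H3K4me1 in 1 library. All 5 libraries came from cells of the same strain under the same culture conditions, with no knockout or untreated arm among them. The study's methods describe 2 biological repeats that were sequenced separately. The data are 1 list of 11676 Runx3 peaks, called on the joined Runx3 libraries, and 1 list of 34204 H3K4me1 peaks. The lists give positions without heights or values per library, so no value below has a replicate error, and intervals on shares are 95% Wilson intervals for counting error only.

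Protein tyrosine phosphatases remove the phosphate that tyrosine kinases place on receptors, adaptors and other kinases, and so set the strength and length of signals in lymphocytes. In NK cells, inhibitory receptors work by recruiting the phosphatases SHP-1 (Ptpn6) and SHP-2 (Ptpn11), whereas CD45 (Ptprc) keeps Src-family kinases ready to act, and Ptpn1 and Ptpn2 act on the Jak and Stat proteins that carry cytokine signals. Dual-specificity phosphatases take phosphate from tyrosine and from serine or threonine, and the MAP kinase phosphatases among them (Dusp1, Dusp2, Dusp4 to Dusp10 and Dusp16) switch off Erk, Jnk and p38. Runx3 is a transcription factor of cytotoxic lymphocytes that binds a short DNA motif, and H3K4me1 is a histone mark found at enhancers and at the edges of promoters.

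The RUNX motif was searched on both strands as TGTGGT and in its 3 variants, the form TGTGGC, the form TGCGGT and the form TGCGGC. It was present in 58 of the 59 Runx3 peaks at the phosphatase genes, a share of 98.3% (91.0 to 99.7), against 95.8% of the 8314 Runx3 peaks at all protein-coding genes. The sequences below are from mm9, read 5′ to 3′ on the strand of the gene, with each RUNX motif in capitals, in its forward or reverse-complement form. The first 8 are shown because they surround the motif nearest the centre of a peak that lies within 1 kb of a transcription start site (TSS) of the gene itself. Ptpn2 also has such a peak, but its sequence is not shown. The motif and 30 bases to either side are given, or 12 bases to either side where the longer stretch would touch an untranslated exon.
Ptpn1 start site (chr2:167757887-167757916, + strand): ggagcttggggcTGCGGTggtggcgggtga
Ptpn22 start site (chr3:103664122-103664187, + strand): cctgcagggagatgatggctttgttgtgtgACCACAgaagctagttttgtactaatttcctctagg
Ptpn7 start site (chr1:137029481-137029546, + strand): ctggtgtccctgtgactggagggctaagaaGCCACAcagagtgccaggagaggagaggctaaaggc
Ptpn12 start site (chr5:20561661-20561690, - strand): ccggccggtgccGCCGCAGCCGCAgccgcc
Ptpn5 internal start site (chr7:54368896-54368961, - strand): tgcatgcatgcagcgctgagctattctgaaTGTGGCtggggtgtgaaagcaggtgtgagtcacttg
Dusp1 start site (chr17:26645121-26645186, - strand): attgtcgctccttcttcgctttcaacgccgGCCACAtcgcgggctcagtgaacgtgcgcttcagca
Dusp5 start site (chr19:53603716-53603745, + strand): ctccgtttgcagGCCACAgcccccgcgagg
Dusp11 start site (chr6:85911412-85911477, - strand): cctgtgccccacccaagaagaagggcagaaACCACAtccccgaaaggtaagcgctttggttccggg

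Among the 8 sequences shown, the motif nearest the peak centre was of the TGCGG form at Ptpn1 and Ptpn12. At Ptpn22, Ptpn7, Ptpn5, Dusp1, Dusp5 and Dusp11 it was of the TGTGG form. The start-site peaks of Ptpn22, Dusp1 and Dusp5 also held a TGCGG form elsewhere in the peak. The next 5 sequences come from the widest Runx3 peak of genes with several peaks, each more than 1 kb from any TSS of that gene. They are shown because most of the peaks at these genes lay away from start sites.
Ptpre intron (chr7:142780423-142780488, + strand): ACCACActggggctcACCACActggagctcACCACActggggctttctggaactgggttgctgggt
Ptprj intron (chr2:90330818-90330883, - strand): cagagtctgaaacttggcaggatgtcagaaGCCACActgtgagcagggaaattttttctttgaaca
Ptpn3 upstream (chr4:57319525-57319590, - strand): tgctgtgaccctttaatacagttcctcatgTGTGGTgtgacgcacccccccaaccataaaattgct
Dusp5 downstream (chr19:53621994-53622059, + strand): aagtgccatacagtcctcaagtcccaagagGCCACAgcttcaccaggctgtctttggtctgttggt
Ptprc intron (chr1:140033222-140033287, - strand): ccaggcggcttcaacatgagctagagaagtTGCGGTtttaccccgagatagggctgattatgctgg

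The Ptpre stretch held 3 copies of the motif at a spacing of 15 bp, and the whole peak held 8. The Ptprc stretch is an intronic site with the TGCGG form. A match to these letters is a description of the sequence and does not by itself mark a bound base.

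Runx3 peaks were found at 29 of the 63 phosphatase genes when the gene body and 5 kb on either side were searched, a share of 46.0% (34.3 to 58.2), against 28.8% of all protein-coding genes. H3K4me1 peaks were found at 43 of the 63, a share of 68.3% (56.0 to 78.4), against 39.8% of all genes. A Runx3 peak that overlapped an H3K4me1 peak by at least 1 bp was present at 16 members (25.4%, 16.3 to 37.3), where the share over all genes was 13.1%. For these 3 measures the members' interval lay above the share over all genes. A Runx3 peak centred within 1 kb of a TSS of the gene itself was present at 9 members (14.3%, 7.7 to 25), and the share over all genes, 13.3%, lay close to it.

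**Figure D1:**
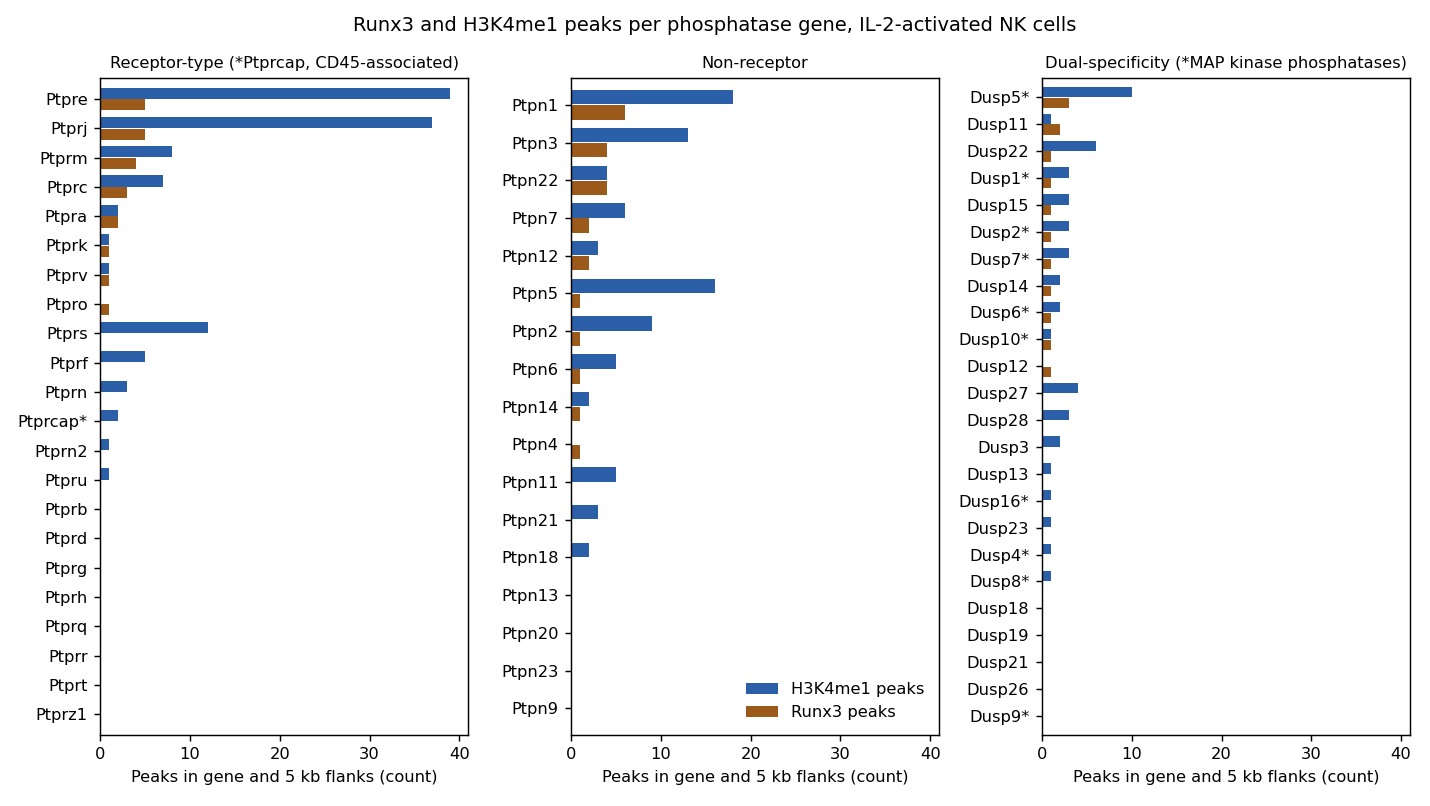
Number of Runx3 peaks (brown) and H3K4me1 peaks (blue) in each of the 63 genes and its 5 kb flanks, by class. Ptpre and Ptprj stand out with 39 and 37 H3K4me1 peaks, Ptpn1 has the most Runx3 peaks (6), and 17 genes at the foot of the panels have no peak of either kind.

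Peaks were concentrated in a few members. Of the 29 bound genes 17 had a single Runx3 peak, and 12 had 2 or more (19.0% of the 63, against 9.40% of all genes). H3K4me1 was more uneven: 7 members had 10 or more peaks (11.1%, against 2.53% of all genes), and Ptpre, Ptprj and Ptpn1 together held 94 of the 253 H3K4me1 peaks at the phosphatase genes (37.2%). Ptpre and Ptprj were among the 27 of 22254 genes with 37 or more H3K4me1 peaks. Both are long genes, of 148 and 151 kb, and by H3K4me1 peaks per 100 kb they ranked 534th and 671st. The median member had 2 H3K4me1 peaks and the median protein-coding gene had 0. Both marks were present at 26 members, H3K4me1 without Runx3 at 17, Runx3 without H3K4me1 at 3 (Dusp12, Ptpn4 and Ptpro) and neither at 17. Among the members with a Runx3 peak 89.7% also had an H3K4me1 peak, and among those without 50% did. The corresponding shares over all genes were 74.5% and 25.7%.

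Phosphatase genes are long, with a median span of 52.5 kb against 15.5 kb for all protein-coding genes, and a longer gene offers more room for peaks. The shares were therefore also taken within classes of gene span, whose limits were set after the peak counts had been seen. Among genes under 20 kb, 11 of 25 members had a Runx3 peak (44.0%, 26.7 to 62.9), against 20.5% of all genes of that span. Between 20 and 100 kb the count was 8 of 19 (42.1%, 23.1 to 63.7) against 37.8%, and above 100 kb it was 10 of 19 (52.6%, 31.7 to 72.7) against 45.6%. In the 2 longer classes the background therefore lay inside the members' interval, and in the short class it lay below it. H3K4me1 followed another order. It was present at 19 of 25 short members (76.0%) against 32.5% of short genes, at 15 of 19 members of middle span (78.9%) against 48.4%, and at 9 of 19 long members (47.4%, 27.3 to 68.3) against 52.1%. For the long members the background again lay inside the interval. Of the 6 members over 500 kb, Ptprd, Ptprt, Ptprg and Ptprn2 had no Runx3 peak, Ptprm had 4 and Ptprk had 1. In the whole annotation 37.5% of genes over 500 kb had one.

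**Figure D2:**
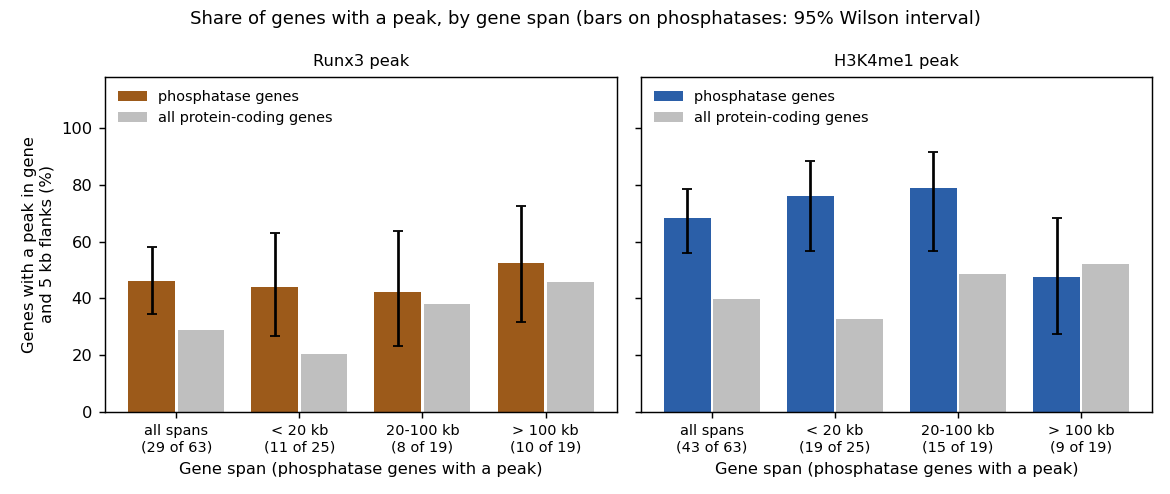
Share of genes (%) with a Runx3 peak (left) or an H3K4me1 peak (right) in the gene and 5 kb flanks, for all 63 phosphatase genes and by gene span, with all protein-coding genes of the same span in grey. Error bars are 95% Wilson intervals on the phosphatase shares. The distance between coloured and grey bars is widest under 20 kb, at 44.0% against 20.5% for Runx3 and 76.0% against 32.5% for H3K4me1.

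By class, Runx3 peaks were found at 10 of 17 non-receptor phosphatases (58.8%) and 6 of 10 MAP kinase phosphatases (60%). They were found at 5 of 14 other dual-specificity phosphatases (35.7%) and 8 of 21 receptor-type phosphatases (38.1%, 20.8 to 59.1). The share over all genes, 28.8%, lay inside the intervals of the last 2 classes and below those of the first 2. The median spans of these classes were, in the same order, 59.1, 9.85, 13.7 and 151 kb. Over all genes of the span range that holds each median, the shares were 37.8, 20.5, 20.5 and 45.6%. These lay inside the interval of each class except the MAP kinase phosphatases (31.3 to 83.2). The counts are small and the intervals of the 4 shares overlapped, from 16.3 to 61.2% for the atypical dual-specificity group to 36.0 to 78.4% for the non-receptor group. In these counts the placing of the peaks also differed between the non-receptor and the receptor-type class. The 10 bound non-receptor genes held 23 Runx3 peaks, and 6 of these genes had one within 1 kb of their own TSS. The 8 bound receptor-type genes held 22 Runx3 peaks, none of them within 1 kb of a TSS of its gene, and 15 overlapped H3K4me1. Of all genes, 13.3% had a Runx3 peak within 1 kb of their own TSS. The receptor-type genes were also the longer ones, and the difference in placing was not tested.

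Ptpn1, the phosphatase PTP1B that acts on Jak kinases and on the insulin receptor, had the most Runx3 peaks of the members, 6 over a gene of 47.3 kb. The peak at its start (chr2:167757485-167758212) was centred 21 bp from a TSS and had an H3K4me1 peak 97 bp away without overlap. Of its other peaks, 4 were intronic and 1 lay downstream of the gene, and all 5 overlapped H3K4me1. Among them, the peak at chr2:167774753-167775196 was narrow, at 444 bp, and lay within an H3K4me1 peak of 4962 bp. The pair of peaks nearest the 3′ end (chr2:167800883-167801850 and chr2:167809804-167810443) had the TSS of the neighbouring gene Fam65c closer than any of Ptpn1, at 10889 and 2132 bp, so they cannot be assigned to one of these genes from position alone. The gene carried 18 H3K4me1 peaks, which covered 45.3% of it and its flanks, and it was among the 88 of 22254 genes with 6 or more Runx3 peaks.

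Ptpn2, the T cell phosphatase closely related to Ptpn1, showed another arrangement. It had 1 Runx3 peak (chr18:67883763-67884311), centred 190 bp inside the gene from its nearest TSS, and 9 H3K4me1 peaks, none of which overlapped Runx3. The nearest H3K4me1 peak lay 427 bp from the Runx3 peak.

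Ptpn22, Ptpn12 and Ptpn7 were bound at their start sites without H3K4me1 there. Ptpn22, which with the kinase Csk holds Src-family kinases in check in lymphocytes, had 4 Runx3 peaks and none overlapped its 4 H3K4me1 peaks. Its start-site peak (chr3:103663764-103664590, 827 bp) was centred 26 bp from the TSS of a transcript that begins inside the gene, and 459 bp from the gene's 5′ end. The peaks at 3722 bp upstream and 7907 bp downstream of a TSS lay 177 and 179 bp from the edge of an H3K4me1 peak, so both sat just beside marked chromatin. The remaining Ptpn22 peak (chr3:103717730-103718710) was centred 177 bp from the TSS of Rsbn1, the next gene, and lay closer to that start site than to any of Ptpn22.

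Ptpn12, a phosphatase of the cytoskeleton and of adhesion signalling, had a peak of 1328 bp at its start (chr5:20561011-20562338) with 8 RUNX motifs, all of the TGCGG form. Of the Runx3 peaks in the list, 97.1% were narrower. Its second peak was intronic, had 1 motif and lay 5108 bp from the nearest H3K4me1 peak. Ptpn7, the haematopoietic tyrosine phosphatase that acts on Erk and p38, had a similarly wide start-site peak of 1352 bp (chr1:137028769-137030120), centred 142 bp from its TSS, with 5 RUNX motifs. A narrower peak 2578 bp from the gene's 5′ end lay 199 bp from an H3K4me1 peak. Ptpn7 carried 6 H3K4me1 peaks over its 12.6 kb and none overlapped Runx3.

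Ptpn3, a phosphatase with a FERM and a PDZ domain, had 4 Runx3 peaks, and each overlapped H3K4me1. The widest (chr4:57318844-57320210, 1367 bp) was centred 4818 bp upstream of the gene between a pair of H3K4me1 peaks that it touched. The related Ptpn4 had 1 intronic Runx3 peak of 427 bp and no H3K4me1 peak within 134131 bp of it.

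Ptpn5, known as the striatum-enriched phosphatase, carried 16 H3K4me1 peaks, with the widest reaching 5714 bp, and 1 Runx3 peak (chr7:54368749-54369499). That peak was the sole one of the 9 within 1 kb of an own TSS that overlapped H3K4me1. It was centred 283 bp upstream of a TSS inside the gene and 19930 bp from the gene's 5′ end, so that with 5′ ends alone the number of genes bound at the start was 8. The peak also held an AP-1 motif. Ptpn14, a FERM-domain phosphatase, had 1 intronic Runx3 peak 126 bp from the edge of an H3K4me1 peak.

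Ptpn6 and Ptpn11, the phosphatases recruited by inhibitory receptors, stand beside a background of 28.8% of all genes with a Runx3 peak. Ptpn6 (SHP-1) had 5 H3K4me1 peaks covering 20.8% of the gene and flanks, and a single Runx3 peak of 912 bp (chr6:124690683-124691594). This peak began 1951 bp upstream of Ptpn6 but was centred 55 bp from the TSS of Grcc10, and it did not overlap H3K4me1. Ptpn11 (SHP-2) had 5 H3K4me1 peaks of 714 bp or less and no Runx3 peak, with the nearest one 7022 bp outside the gene. When assignment instead went by the closest start site, up to 50 kb away, Ptpn11 was given 2 Runx3 peaks.

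**Figure D3:**
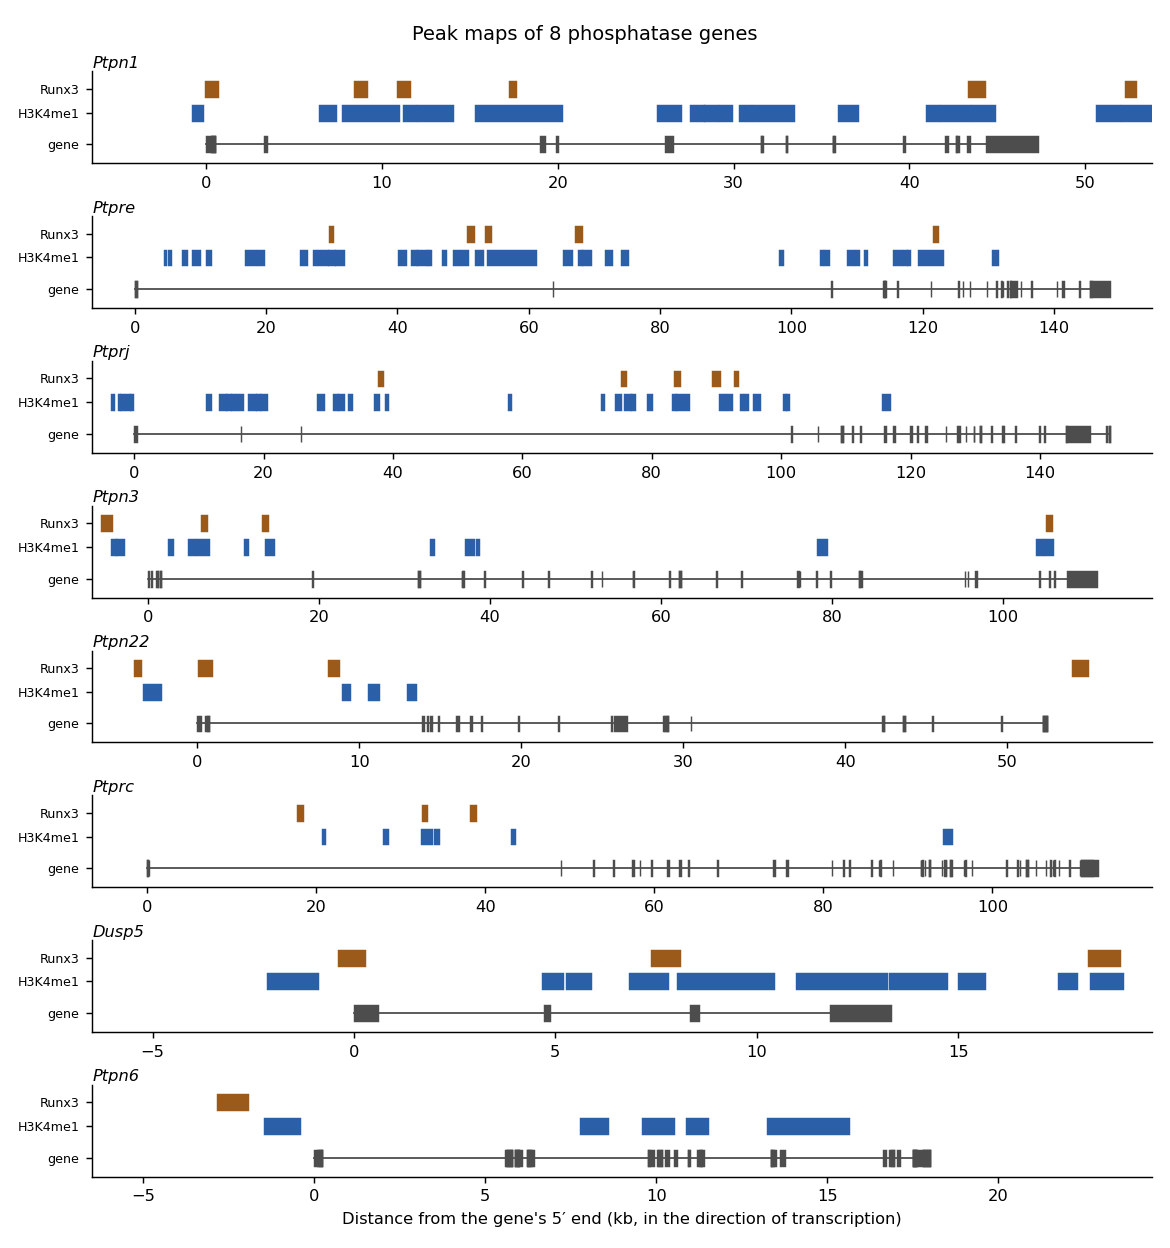
Maps of 8 phosphatase genes, with exons in grey, H3K4me1 peaks in blue and Runx3 peaks in brown, against the distance (kb) from the gene's 5′ end in the direction of transcription. All 5 Runx3 peaks of Ptpre and 4 of 5 of Ptprj overlap H3K4me1 peaks inside introns, whereas none of the 4 of Ptpn22 overlaps one.

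The receptor-type phosphatases with the most peaks were Ptpre and Ptprj. Ptpre, which like Ptpra has a short, glycosylated extracellular part and acts on Src-family kinases, had 5 Runx3 peaks over 148 kb, and all 5 were intronic and overlapped H3K4me1. A Runx3 peak of 873 bp (chr7:142782902-142783774) crossed the edge of an H3K4me1 peak of 7389 bp, the widest such peak at any member, and was centred inside it. The widest Runx3 peak of Ptpre (chr7:142780037-142781192, 1156 bp) lay between H3K4me1 peaks rather than with its centre inside one. Ptprj, the receptor phosphatase CD148, had 5 intronic Runx3 peaks over 151 kb, of which 4 overlapped H3K4me1 and the last lay 191 bp from an H3K4me1 peak. In Ptprj, 4 of the 5 were centred outside H3K4me1 peaks, and 1 (chr2:90336375-90337431) was centred inside an H3K4me1 peak. Only 5 of the 39 H3K4me1 peaks of Ptpre and 6 of the 37 of Ptprj touched a Runx3 peak.

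Ptprc, which encodes CD45, had 3 intronic Runx3 peaks at 18078, 32853 and 38586 bp from its TSS, and the middle one (chr1:140038704-140039343) overlapped an H3K4me1 peak of 1321 bp. The other two lay 2343 and 3690 bp from any H3K4me1 peak. Ptpra had 2 Runx3 peaks, in an intron 89903 bp from a TSS and just past its 3′ end, and both overlapped H3K4me1. For both of these the nearest TSS was that of Mrps26, at 23295 and 8664 bp. Among the adhesion receptors, Ptprm, a gene of 688 kb, had 4 intronic Runx3 peaks within 142 kb of each other, and the 2 nearest the 5′ end, 1142 bp apart, overlapped H3K4me1. Ptprk had a single one, 519199 bp from its TSS near the 3′ end of the gene (chr10:28313536-28314182), which was closer to Themis at 74307 bp and was the 1 peak of the 59 without a RUNX motif. Ptpro had 1 intronic Runx3 peak of 482 bp, with 202894 bp to the nearest H3K4me1 peak. Ptprv, annotated here with a span of 1.14 kb, had 1 peak 4874 bp upstream that ended 7 bp from an H3K4me1 peak.

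Dusp5, a nuclear phosphatase of Erk, was the most densely marked of the dual-specificity genes. Its 13.3 kb and flanks held 3 Runx3 peaks and 10 H3K4me1 peaks, and 45.7% of the sequence was covered by H3K4me1. At 42.9 H3K4me1 peaks per 100 kb it ranked 38th of all genes. The start-site peak (chr19:53603191-53603885), centred 61 bp upstream of the TSS, did not overlap H3K4me1, with 495 bp to the nearest. The intronic peak and the one 18613 bp downstream of the TSS both did.

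The other MAP kinase phosphatases had 1 Runx3 peak or none. Dusp1, an immediate-early gene product that acts on p38, Jnk and Erk, had a peak of 946 bp over its start (chr17:26644749-26645694), with 5 RUNX motifs and 802 bp to the nearest H3K4me1 peak. Dusp2, a nuclear phosphatase first found in activated lymphocytes, had a Runx3 peak 2521 bp downstream of its TSS (chr2:127164517-127165218) that overlapped H3K4me1. That peak was centred 492 bp from the TSS of Astl. Dusp6, a cytoplasmic phosphatase of Erk, had one 5791 bp downstream of its TSS and past the end of the gene. Dusp7, a relative of Dusp6, had one in an intron, and Dusp10, which acts on Jnk and p38, had one in an intron 32758 bp from a TSS. All 3 of these peaks overlapped H3K4me1. Dusp4, Dusp8 and Dusp16 had 1 H3K4me1 peak each and no Runx3 peak, and Dusp9, on the X chromosome, had neither.

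Among the atypical dual-specificity phosphatases, Dusp11, an RNA phosphatase, had a peak at its start (chr6:85911002-85911954) and another 4981 bp upstream, neither with H3K4me1. Dusp22, which acts on the kinase Lck, had 6 H3K4me1 peaks and 1 intronic Runx3 peak that overlapped one of them. Dusp15 had 1 Runx3 peak just past its 3′ end, on an H3K4me1 peak and nearer to the TSS of Foxs1. Dusp14 had 1 intronic Runx3 peak, 7770 bp from the nearest H3K4me1. Dusp12 had 1 at 4484 bp beyond its 3′ end, 981 bp from a TSS of Atf6. Dusp12 and Ptprv, at 4533 bp from the gene, were the bound members nearest to the 5 kb limit, and Ptprs and Ptpn11, at 5793 and 7022 bp, were the nearest outside it.

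Of the 34 members without a Runx3 peak, 17 carried H3K4me1. Ptprs had 12 H3K4me1 peaks, all without Runx3, and Ptprf, of the same receptor family, had 5. Dusp27 had 4, and Ptpn21, Ptprn and Dusp28 had 3 each. Ptpn18, Dusp3 and Ptprcap had 2 each, Dusp13, Dusp23, Ptprn2 and Ptpru had 1 each, and Ptpn11, Dusp4, Dusp8 and Dusp16 are given above. The nearest Runx3 peak to the gene lay within 20 kb for 12 of the 34, between 20 and 100 kb for 11 and beyond 100 kb for 11.

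The 17 members with neither mark were Ptprb, Ptprd, Ptprg, Ptprh, Ptprq, Ptprr, Ptprt and Ptprz1 among the receptor types, Ptpn9, Ptpn13, Ptpn20 and Ptpn23 among the non-receptor types, and Dusp9, Dusp18, Dusp19, Dusp21 and Dusp26. Several are known from other tissues, such as Ptprz1 in glia, Ptprb in endothelium and Ptprq in the inner ear. They made up 27.0% of the members, and 52.8% of all genes had neither. Short length was not a feature of these 17, whose median span was 67.8 kb, and 8 of them were over 100 kb. Their median distance to the nearest Runx3 peak was 115 kb. The most isolated were Dusp21 at 1010634 bp, Ptprg at 959503 bp and Ptprd at 661893 bp.

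**Figure D4:**
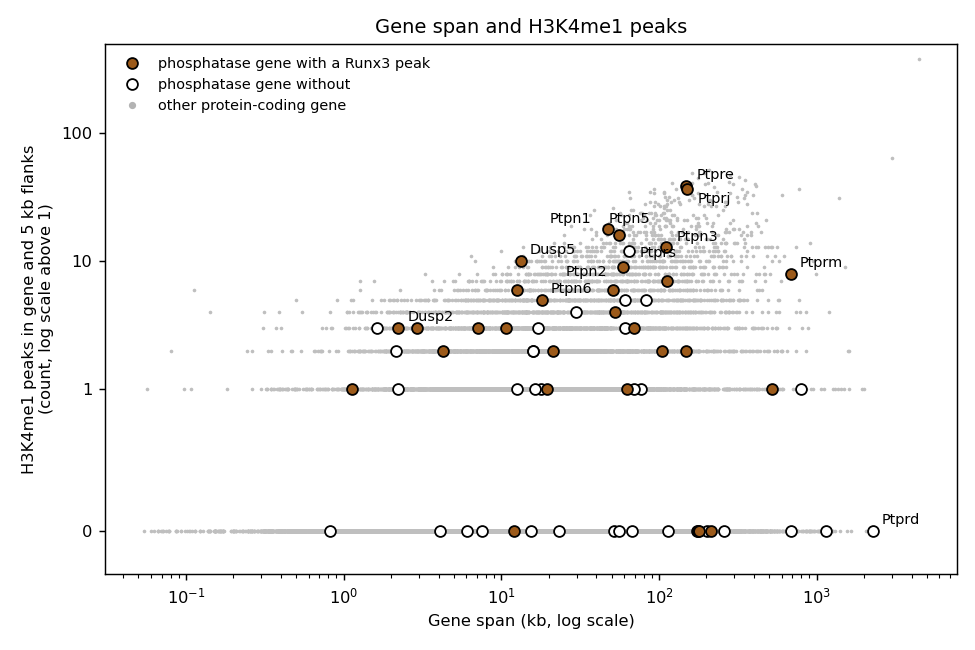
Gene span (kb, log scale) against the number of H3K4me1 peaks in the gene and 5 kb flanks (log scale above 1), for phosphatase genes with a Runx3 peak (brown) and without (white) and for the other protein-coding genes (grey). Ptpre (39), Ptprj (37), Ptpn1 (18) and Dusp5 (10) lie towards the upper edge for their span, whereas Ptprd, the longest member at 2271 kb, has 0.

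The 59 Runx3 peaks were distinct, and no peak was counted for more than 1 member. By the position of their centre, 40 were intronic, 3 lay in coding exons, 2 in untranslated or non-coding exons, 6 upstream and 8 downstream of the gene. The median distance to a TSS of the same gene was 11.2 kb. The nearest TSS was the gene's own for 49 peaks and that of another gene for 10. Counting the TSSs of all protein-coding genes, 13 of the 59 (22.0%, 13.4 to 34.1) were centred within 1 kb of one, against 33.1% of Runx3 peaks at all genes, which lay inside the interval. Of those 13, 9 were at the phosphatase gene's own start and 4 at a neighbour's (Rsbn1, Atf6, Astl and Grcc10).

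**Figure D5:**
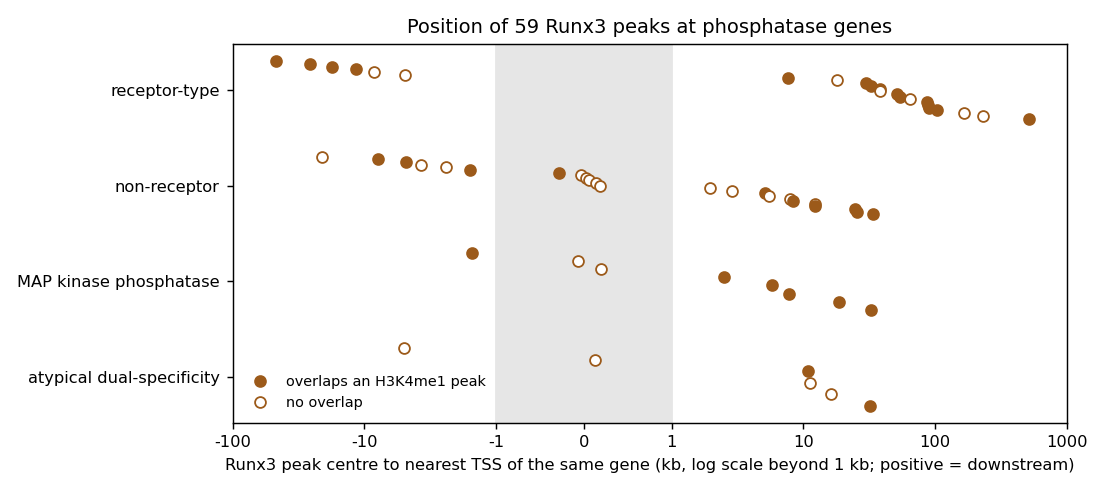
Distance (kb, log scale beyond 1 kb) from the centre of each of the 59 Runx3 peaks to the nearest TSS of the same gene, by class, with filled circles for peaks that overlap H3K4me1. Of the 9 peaks in the shaded band within 1 kb of the TSS, 1 overlaps H3K4me1, and of the 50 outside it, 32 do. No receptor-type gene has a peak in the band.

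H3K4me1 overlapped 33 of the 59 Runx3 peaks (55.9%, 43.3 to 67.8), against 46.8% of Runx3 peaks at all genes, a value inside the interval. It overlapped 1 of the 9 peaks at own start sites and 32 of the other 50. With start sites of all genes counted, the shares were 15.4% (4.33 to 42.2) for the 13 peaks within 1 kb and 67.4% (53.0 to 79.1) for the 46 beyond. Over all genes they were 18.7% and 60.6%, so the order of the 2 shares was that seen over all genes. Ptpn1, Ptpre and Ptprj supplied 16 peaks of which 14 overlapped H3K4me1, and at the other members 19 of 43 did. Of the 26 peaks without overlap, 11 lay within 500 bp of an H3K4me1 peak. The centre was inside an H3K4me1 peak for 21 peaks, and 7 were centred between 2 H3K4me1 peaks that each lay within 2 kb. Seen from the other side, 37 of the 253 H3K4me1 peaks (14.6%) touched a Runx3 peak, against 18.4% of H3K4me1 peaks at all genes.

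A RUNX motif lay within 100 bp of the centre in 44 of the 59 peaks, at a median of 38.5 bp. No matching value over all genes or in flanking windows is given, so closeness to the centre has no background here. In 116 windows of the same widths, 10 kb to either side of each peak, the motif was present anywhere in the window in 62.9%, against 98.3% of the whole peaks. The form of the motif differed by place: TGTGGT was in 40 of the 46 peaks beyond 1 kb of any TSS and in 6 of the 13 within it, whereas TGCGGT was in 3 of 46 and 5 of 13. Over all genes the shares for TGTGGT were 84.0% beyond and 51.1% within 1 kb, and for TGCGGT 15.6% and 43.0%. TGCGGC followed TGCGGT, in 3 of 46 and 5 of 13 peaks, against 9.85% and 50% over all genes. TGTGGC was in 30 of 46 and 7 of 13, against 60.7% and 50.5%. For each form the order of the 2 shares was that seen over all genes. The difference in form between the 2 groups of peaks was not tested.

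ETS and AP-1 motifs were searched as well. The ETS motif, taken as AGGAAA or as its variant AGGAAG or with another first base as CGGAAA or as the variant CGGAAG, was present on either strand in 57 of the 59 peaks (96.6%), against 91.4% of Runx3 peaks at all genes and 85.3% of the flanking windows, so that most windows of this width hold one. The AP-1 forms TGACTCA and TGAGTCA were present in 17 of the 59 (28.8%, 18.8 to 41.4), against 23.9% over all genes and 16.4% of the flanking windows. Peaks with AP-1 included 3 of the 5 at Ptprj, 3 of the 4 at Ptpn3 and 2 of the 5 at Ptpre, and in Ptpn1 they were the start-site peak and the intronic peak inside the widest H3K4me1 peak.

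A list of 19 members with a textbook role in lymphocyte receptor, cytokine or MAP kinase signalling was given separately: Ptpn1, Ptpn2, Ptpn6, Ptpn7, Ptpn11, Ptpn12, Ptpn22, Ptprc, Ptprj, Ptpre, Ptpra, Dusp1, Dusp2, Dusp4, Dusp5, Dusp6, Dusp10, Dusp16 and Dusp22. Runx3 peaks were present at 16 of them (84.2%, 62.4 to 94.5), against 28.8% of all genes, and H3K4me1 at all 19, against 39.8%. Their median span was 52.5 kb, and of all genes between 20 and 100 kb 37.8% had a Runx3 peak and 48.4% an H3K4me1 peak. The 3 without Runx3 were Ptpn11, Dusp4 and Dusp16. They held 39 of the 59 Runx3 and 162 of the 253 H3K4me1 peaks of the members. This list was drawn up with earlier results of these data known, so its counts are a description and no evidence of their own.

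The partners of the phosphatases are given beside the same background, 28.8% of all genes with a Runx3 peak and 39.8% with an H3K4me1 peak. Of 33 kinases and substrates found in the annotation, 23 had a Runx3 peak (69.7%, 52.7 to 82.6) and 28 an H3K4me1 peak (84.8%). The median span of this list was 45.4 kb, and 37.8% of all genes between 20 and 100 kb had a Runx3 peak. Jak1 and Mapk14 (p38 alpha) had 4 Runx3 peaks each, and Lck, Fyn and Csk had 3 each, while Jak2, Jak3, Tyk2 and Stat5a had none. Of 14 receptors that recruit SHP-1 or SHP-2, 6 had a Runx3 peak (42.9%, 21.4 to 67.4), an interval that held the background. Cd244 (2B4) had 4, all on H3K4me1, Pdcd1 (PD-1) and Pecam1 had 3, Klrg1 had 2, and Klrc1 (NKG2A) and Cd5 had 1. Cd22, Sirpa, Btla, Ceacam1 and Lilrb3 had neither mark. Of 38 genes of other phosphatase families, 18 had a Runx3 peak (47.4%, 32.5 to 62.7), a share near the 46.0% of the tyrosine and dual-specificity phosphatases.

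Peaks at marker genes of several cell types are given as a description. A peak is not a measure of expression, so these counts cannot check the cell label. Runx3 peaks were present at 9 of 9 NK cell markers (Ncr1, Klrb1c, Klrk1, Il2rb, Eomes, Tbx21, Itga2, Prf1 and Gzmb), against 28.8% of all genes. They were present at 2 of 6 T cell markers (Cd3e and Cd3d, 33.3%, 9.68 to 70). For B cell markers the count was 1 of 5 (20%, 3.62 to 62.4), and for myeloid markers 2 of 5 (40%, 11.8 to 76.9). The intervals of the T, B and myeloid shares held the background. H3K4me1 peaks were present at 8 of 9 NK, 3 of 6 T, 2 of 5 B and 3 of 5 myeloid markers, against 39.8% of all genes. Cd4, Cd8a, Cd8b1 and Foxp3 had no Runx3 peak. The depth of the libraries is stated by the study but cannot be read from the lists, so a gene without a peak is one where none was called at that depth and threshold.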

How the data were processed

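Chromatin immunoprecipitation sequencing was done by the authors on 5 libraries of IL-2-activated NK cells. Per the study's methods, reads of 40 bp were aligned with ELAND to mm9, unique alignments were kept, the 2 Runx3 libraries were joined, and peaks were called with MACS against the non-immune serum libraries after the larger dataset was scaled to the smaller. The deposited lists hold peak positions in bp, with no score, fold or count, so depth, which the study's methods state, cannot be read from them and the spread between libraries cannot be derived, and a peak's width was the sole measure of its size. Starts in the lists are counted from 0 and were converted to count from 1. Genes came from GENCODE M1, with overlapping records of 1 symbol joined (22350 records to 22254 genes, 65 to 63 among the members). A peak was given to each gene it touched by at least 1 bp within the gene and 5 kb. The reference sequence was NCBIM37, whose chromosome names and lengths matched mm9. Shares were computed in Python 3.11.15 with SciPy 1.17.1, numpy 2.4.6 and pysam 0.24.0, and the overlap code was tested on simulated data. No test between groups was possible or made. Named genes were the 12 members with the most Runx3 peaks, every member bound within 1 kb of its own TSS, and the 19 signalling members. The other members are given by counts, with single values where they complete a class. The members, the lists and the classes of span were chosen with earlier results of these data known. Syk, Trac and Adgre1 were not found under these symbols, the last being listed as Emr1.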

Additional observations from a re-analysis of the deposited data

How the results depend on the processing

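Of 44 values recomputed under other choices, 36 stayed within 1.5 times the count or within the interval reported, and 8 moved. With Runx3 peaks of at least the median width (704 bp), 17 members had a Runx3 peak (27.0%, against 18.6% of all genes), the members held 31 Runx3 peaks, 10 members had one that overlapped H3K4me1, and 100% of the peaks had a RUNX motif. With H3K4me1 peaks of at least the median width (689 bp), the members held 134. Requiring H3K4me1 to cover 50% of the Runx3 peak lowered the share that overlapped to 37.3%, and accepting a distance of 500 bp raised it to 74.6%. A RUNX motif was present in the central 200 bp of 74.6% of the members' peaks, and no share over all genes is given for that window. The number of members with a Runx3 peak was 23 without flanks (36.5%, against 23.2% of all genes), 41 with flanks of 20 kb (65.1%, against 41.1%) and 25 when assignment instead went by the closest start site, up to 50 kb away (39.7%, against 27.3%). The members' share was above that over all genes in these 4 settings, but with the wider Runx3 peaks its interval (17.6 to 39%) held the background, and in the other 3 it did not. With flanks of 20 kb, 12 members gained a Runx3 peak, among them Ptpn11, Dusp16 and Ptprs. Leaving out Ptprcap changed no count of Runx3 peaks. No paired analysis was possible because the Runx3 libraries were joined before peaks were called, and for the same reason no library could be left out. The lists give no height and no depth, so weak sites and absent ones cannot be told apart.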

Other observations

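Among phosphatase genes outside these families, the H3K4me1 and Runx3 peaks were also concentrated in a few. Ubash3b, which encodes the phosphatase Sts-1, had 37 H3K4me1 peaks, as many as Ptprj, and 5 Runx3 peaks of which 4 overlapped H3K4me1. Its relative Ubash3a had 8 H3K4me1 peaks and no Runx3 peak. Eya2, a tyrosine phosphatase and transcriptional cofactor, had 5 Runx3 peaks, all on H3K4me1, among 14 H3K4me1 peaks, whereas Eya4 had neither. Ppp3cc, a catalytic subunit of calcineurin, had 5 Runx3 peaks of which 1 overlapped H3K4me1, and Ppp3ca had 3, while Ppp3cb had 1. Of the 38 genes, 11 had a Runx3 peak within 1 kb of their own TSS, against 13.3% of all protein-coding genes. These genes were named after their values were seen, and no test was made.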
